A study of Mus musculus with 18 samples.

Results

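The 39 genes described here are transcripts of monocytes, macrophages and neutrophils that were measured in cultures of splenic CD4 T cells. They were taken from a fixed list of symbols, and each of the 39 symbols matched 1 of the 36528 entries of the deposited expression table. The study asked how Ox40, a costimulatory receptor of the TNF receptor family on activated T cells, acts together with the T cell receptor. The cells came from spleens of NZB/W F1 females, NZB by NZW hybrids with a disease resembling lupus, aged 21 to 27 weeks with 30 to 100 mg/dL of protein in the urine, and were purified with a negative selection kit. Every culture held 250000 cells per well and IL-2 at 10 U/mL, and RNA was taken at 48 h. One arm was given anti-Ox40 IgG1 and the other an isotype control IgG1 (control Ig), both at 25 µg/mL. Within each arm, cells received 0, 0.1 or 1 bead per cell coated with antibodies to CD3 and CD28, called no, low and high beads here. The 6 groups hold 3 libraries each, 18 in all. The labels do not say whether the replicates are separate mice or separate wells, so a p-value here speaks of the spread among libraries alone, which may be technical.

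Enrichment of CD4 T cells from spleen leaves a small remainder of other cells, and phagocytes have transcripts that T cells lack or carry at very low levels. Macrophages depend on the receptor encoded by Csf1r, sense microbes through lectins such as Dectin-1 and Dectin-2, clear debris through scavenger receptors, and signal through adaptors that carry an ITAM motif. The transcription factor PU.1, encoded by Spi1, binds purine-rich sites with a GGAA core and is required for the myeloid lineage. Some genes on the list are also transcribed by lymphocytes, among them those for NADPH oxidase subunits and lysosomal proteins.

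Promoter sequences are shown because PU.1 acts through short sites near the start of many of these genes. RefSeq promoter windows on GRCm38.p6, each 250 bases before and 50 after a gene's start, were found for 28 of the 39 genes, 30 windows in all. The letters GAGGAA, a stricter word than GGAA, were searched on both strands. They occurred in 20 of the 30 windows (66.7%), against 28.3% of 32851 RefSeq windows of the same length. By gene, 18 of the 28 held them, since Clec7a and Fcgr3 each had 2 nearly identical windows with the same match. The longer word GAGGAAGT, which contains GAGGAA, was found in 3 windows (10.0%), those of C1qc, Ctss and S100a8, against 3.20% of all windows. A match is a description of the letters and not a measured site. The stretches printed are 200 bases long and run 5′ to 3′ on the gene's strand, with GAGGAA or its reverse complement TTCCTC in capitals. The first 3 belong to genes that were lower with beads in both arms, an integrin subunit (Itgam, chr7:128062440-128062639, plus strand), a complement subunit (C1qb, chr4:136886201-136886400, minus strand) and a cytokine receptor (Csf2ra, chr19:61228419-61228618, minus strand). Ctss (chr3:95526586-95526785, plus strand) fell at high beads alone. Its match to the longer word begins at base -2 from the gene's start, so the printed stretch ends within that match and does not mark it. Lyz2 (chr10:117282323-117282522, minus strand, ending 50 bases before the start) had the largest decrease of the list on the log2(nRPKM + 1) scale and Ncf1 (chr5:134229626-134229825, minus strand) rose, and neither printed stretch holds the 6 letters searched, although GGAA or its complement TTCC occurs in both.
Itgam: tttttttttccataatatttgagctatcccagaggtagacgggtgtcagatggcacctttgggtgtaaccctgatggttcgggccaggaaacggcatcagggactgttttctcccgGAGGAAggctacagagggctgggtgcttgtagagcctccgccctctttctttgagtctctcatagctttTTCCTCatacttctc
C1qb: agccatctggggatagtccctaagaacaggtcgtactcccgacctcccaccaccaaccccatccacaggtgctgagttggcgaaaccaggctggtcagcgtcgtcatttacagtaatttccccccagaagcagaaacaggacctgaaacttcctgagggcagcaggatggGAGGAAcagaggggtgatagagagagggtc
Csf2ra: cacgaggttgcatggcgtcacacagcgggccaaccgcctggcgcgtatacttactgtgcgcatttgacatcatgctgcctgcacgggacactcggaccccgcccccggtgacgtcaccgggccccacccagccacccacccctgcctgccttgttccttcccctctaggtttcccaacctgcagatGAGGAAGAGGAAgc
Ctss: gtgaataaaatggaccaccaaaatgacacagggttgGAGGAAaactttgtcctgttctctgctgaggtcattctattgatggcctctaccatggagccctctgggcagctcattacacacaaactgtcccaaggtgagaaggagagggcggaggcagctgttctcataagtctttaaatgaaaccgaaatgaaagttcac
Lyz2: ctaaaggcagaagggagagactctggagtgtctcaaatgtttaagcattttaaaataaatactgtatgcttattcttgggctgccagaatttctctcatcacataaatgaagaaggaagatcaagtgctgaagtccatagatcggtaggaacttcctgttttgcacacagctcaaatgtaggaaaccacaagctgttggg
Ncf1: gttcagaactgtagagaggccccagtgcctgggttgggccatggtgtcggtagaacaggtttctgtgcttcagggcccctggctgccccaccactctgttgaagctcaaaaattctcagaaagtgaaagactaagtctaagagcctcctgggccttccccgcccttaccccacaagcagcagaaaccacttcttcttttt

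Values are nRPKM, read numbers per gene length and library size with the submitters' further normalization. From the spacing of low values, an nRPKM of 1 over 1 kb stood for 26.4 to 46.0 reads, depending on the library. Differences are in log2(nRPKM + 1), which understates changes of genes with low values, and are given with their standard error (SE) and limma's Benjamini-Hochberg adjusted p over the 13075 genes that reached an nRPKM of 1 in 3 or more of the 18 libraries. Of the 39 genes, 34 passed that filter, and Lyz1, Csf3r, Fcgr1, Marco and Mrc1 did not. Among the 34, 15 had fewer than 3 bead libraries at the minimum and so passed through the no-bead libraries, where they were high. They were Clec7a, Msr1, Cd14, Cd36, Cd5l, Csf1r, C1qa, C1qb, C1qc, Sirpa, Emr1, Vcam1, Ly86, Pla2g7 and Wfdc17. For those 15 a decrease with beads was built into the filter, so their differences from no beads are descriptions, as are counts over the 34.

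With beads, most of these transcripts dropped to a small share of their level without beads. Over the 39 genes, the median of what remained at low beads was 17.5% of the no-bead mean in control Ig and 11.3% under anti-Ox40. At high beads the medians were 5.51% and 2.20%. In control Ig at high beads, 23 of the 39 kept under 10% of their no-bead mean, 10 kept 10 to 50%, 4 kept 50 to 100% and 2 (Ncf1 and Lyz1) were above it. The anti-Ox40 arm at high beads had 26, 7, 5 and 1 in the same ranges. These levels are shares of each library's RNA, so fewer myeloid cells, less RNA per myeloid cell and more RNA from the other cells of the culture cannot be told apart.

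**Figure D1:**
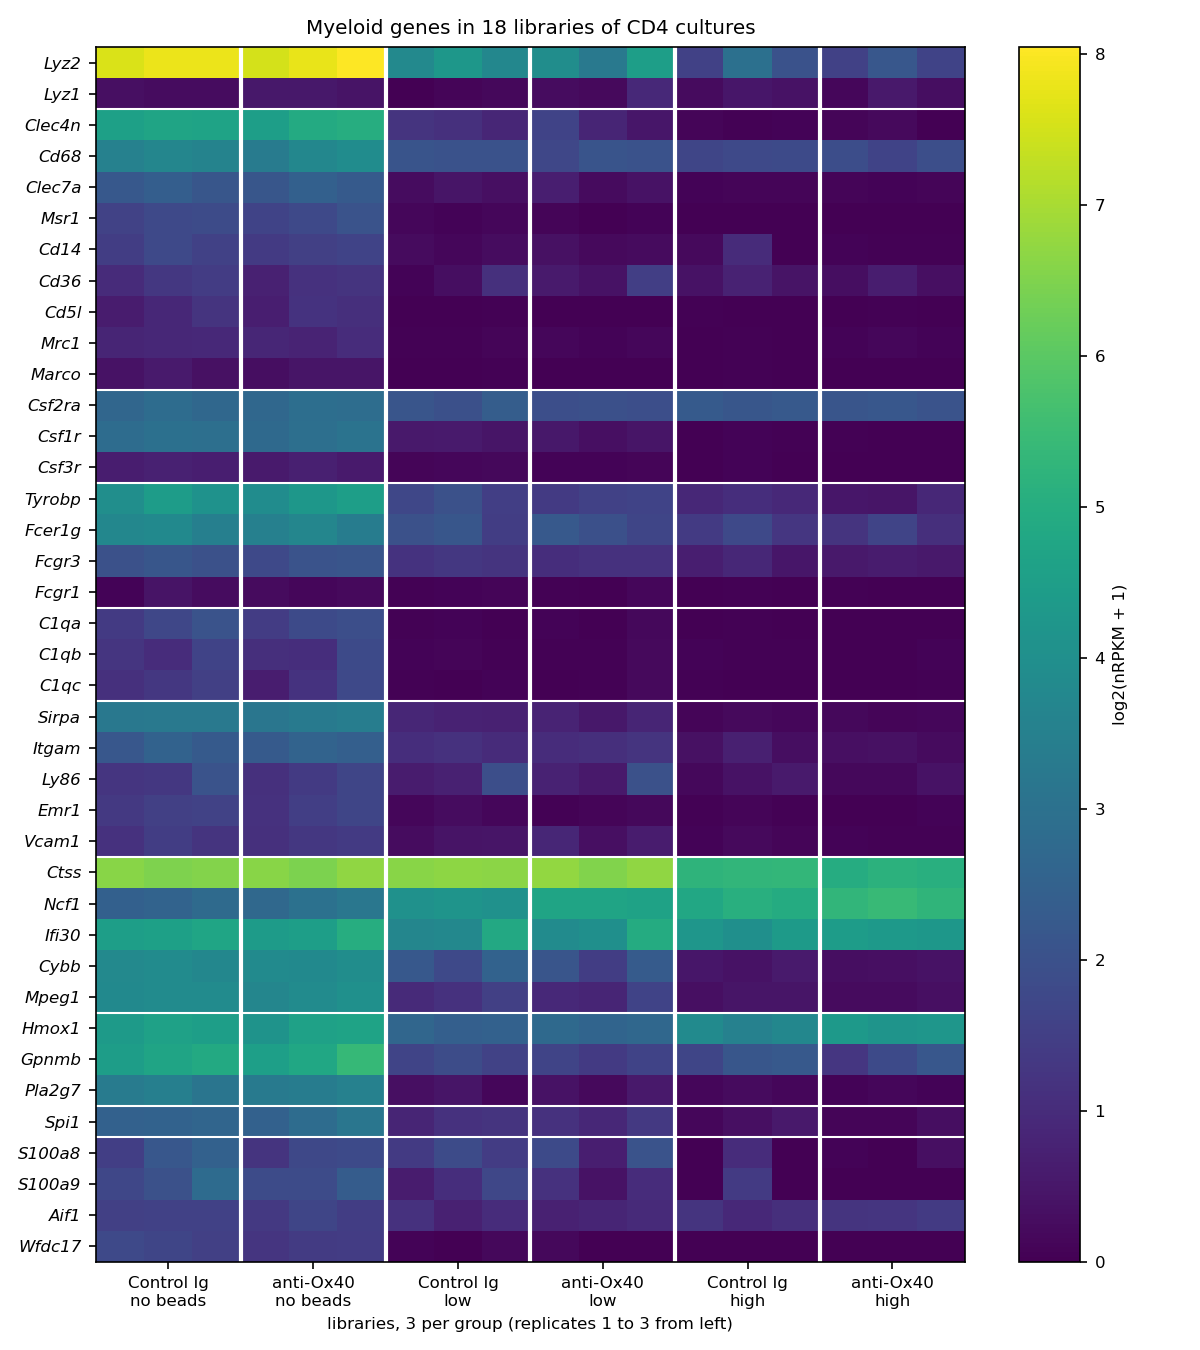
Each row is 1 of the 39 genes and each column 1 of the 18 libraries; colour gives log2(nRPKM + 1), white lines separate groups (vertical) and roles (horizontal). Most rows are bright only in the 6 no-bead libraries, while the Ncf1 row brightens with beads and the Ctss, Ifi30 and Hmox1 rows keep colour at high beads.

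Low against no beads called 29 of the 34 tested genes lower and 1 higher in control Ig, where 29.8% of all tested genes were called lower and 32.6% higher. The same comparison under anti-Ox40 called 28 lower and 1 higher, against 33.7% and 37.1% of all tested genes. High against no beads called 32 lower and 1 higher in control Ig, with 38.9% of all tested genes lower and 43.4% higher. Under anti-Ox40 it called 29 lower and 1 higher, with 39.3% and 45.2% in the background. The median difference of the tested members was -1.43 and -1.32 at low beads and -1.71 and -1.61 at high beads in control Ig and anti-Ox40, while the median of all tested genes lay between 0.01 and 0.06.

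Between low and high beads the genes divided. In control Ig 13 of 34 were called lower and 2 higher (32.5% and 40.0% of all tested genes), and under anti-Ox40 18 were lower and 3 higher (31.2% and 40.3%). The shares called lower lie closer to those of all genes than in the comparisons with no beads. The shares called higher stayed far under those of all genes. In 12 of the 39 genes every high-bead library held fewer than 10 estimated reads.

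Libraries were also compared without a model over all 39 genes. At high beads 37 of the 39 had every control Ig library below every no-bead library of that arm, 1 (Ncf1) had every library above, and only Lyz1 overlapped. Across the 26008 entries above 0 in any library, 28.5% were likewise fully below. In the anti-Ox40 arm 34 were fully below, where the background was 30.2%, Ncf1 was fully above, and Lyz1, Hmox1, Aif1 and Ifi30 overlapped.

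**Figure D2:**
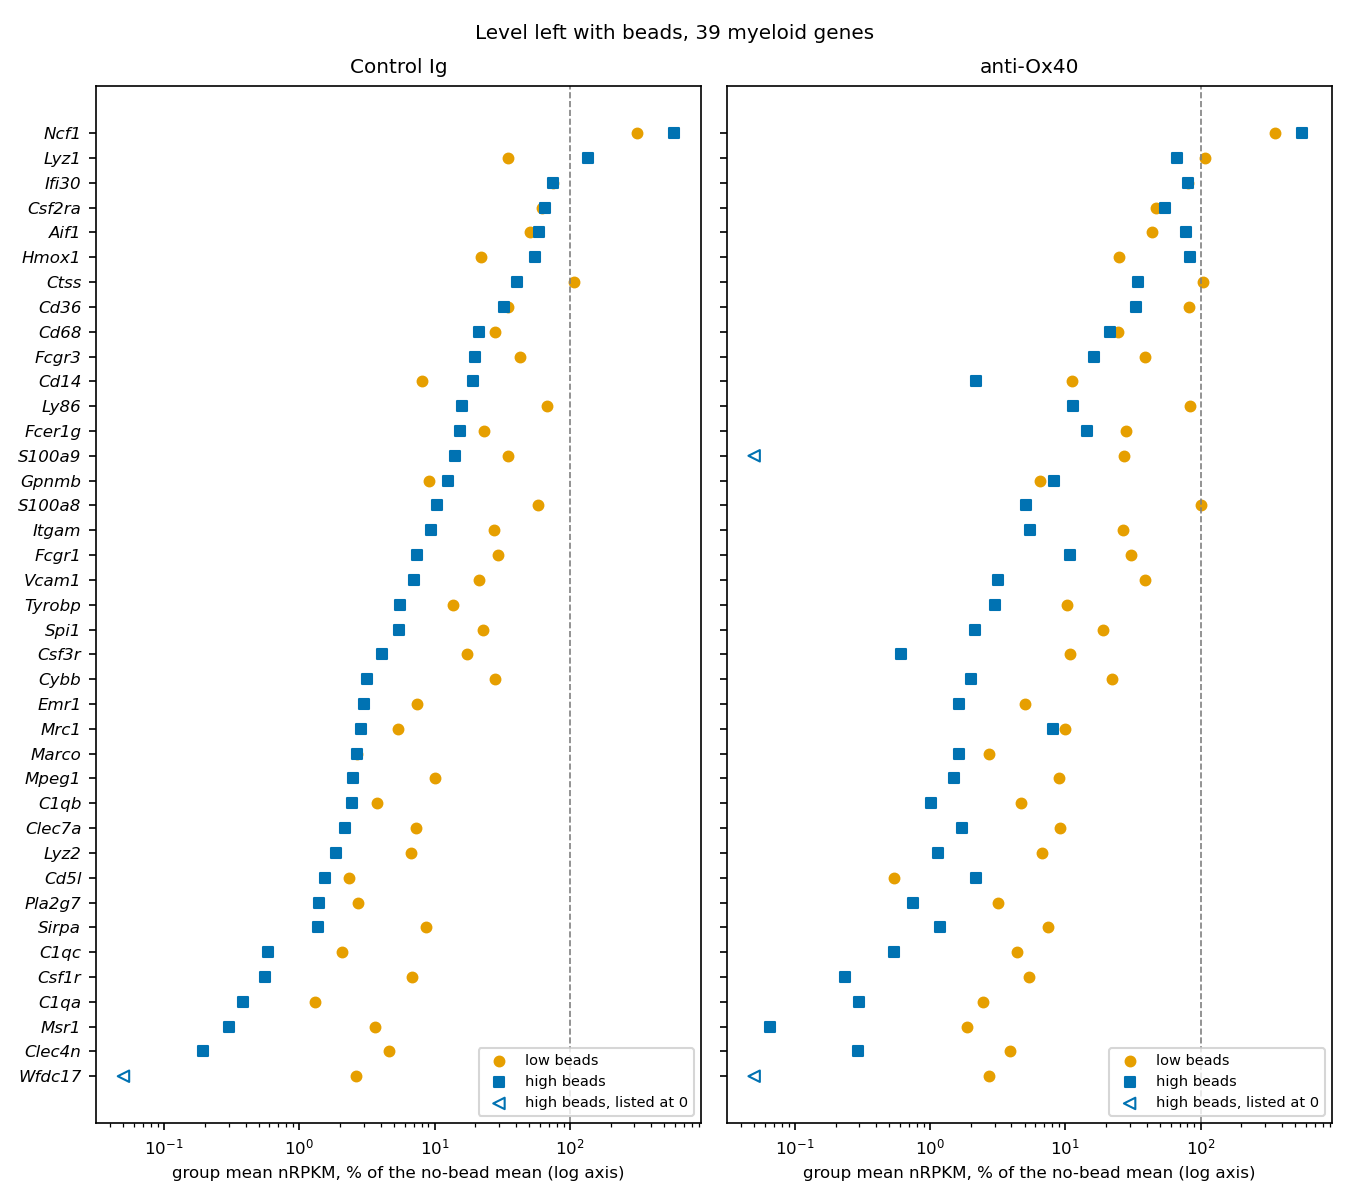
Points give the group mean at low (circles) and high beads (squares) as a percentage of the no-bead mean of the same antibody, on a log axis, with open triangles for means listed at 0. Lyz2 sits at 6.73% and 1.87% in control Ig, and Ncf1 is the gene far to the right of the dashed 100% line in both arms.

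The most abundant transcript was that of Lyz2, the lysozyme of macrophages and neutrophils (chromosome 10, 117277331 to 117282321). Without beads it was listed at 194, 222 and 223 nRPKM in the 3 control Ig libraries and at 185, 217 and 264 under anti-Ox40. Low beads left 12.8, 18 and 12.1 in control Ig and 14.4, 8.57 and 21.7 under anti-Ox40. At high beads the values were 1.96, 6.86 and 3.10, and 1.94, 3.56 and 2.08 under anti-Ox40. The 3 doses did not overlap in either arm, and the group means went from 213 ± 16.3 to 14.3 ± 3.22 to 3.97 ± 2.56 (SD, n = 3) in control Ig. Lyz2 fell by 3.82 at low beads (SE 0.32, adjusted p = 5.26e-08) and by 1.73 more from low to high beads (adjusted p = 0.000169).

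Its neighbour Lyz1, a lysozyme best known from Paneth cells of the gut (chromosome 10, 117287797 to 117292868), did not fall steadily with dose. It ranged from 0 to 0.900 nRPKM over the 18 libraries, with 0.246, 0.208 and 0.196 in control Ig without beads. Low beads gave 0, 0.089 and 0.139, all below the no-bead libraries, and high beads 0.182, 0.396 and 0.306. Under anti-Ox40 it was at 0.430, 0.430 and 0.329 without, 0.213, 0.163 and 0.900 with low and 0.108, 0.463 and 0.223 with high beads. The highest value, 0.900, was in anti-Ox40 replicate 3 at low beads. Of all 50-base stretches in Lyz1 transcripts, 16.1% also occur in transcripts of Lyz2, so part of the Lyz1 value may be shared reads, and no test was made.

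Receptors that recognise microbes and debris were strongest in the no-bead libraries. Clec4n encodes Dectin-2, a lectin for fungal mannans (chromosome 6, 123229843 to 123247021), and was listed at 22.8, 25.0 and 24.3 in control Ig and 21.7, 29.5 and 31.2 under anti-Ox40 without beads. It was at 1.31, 1.18 and 0.802 (control Ig) and 2.04, 0.774 and 0.406 (anti-Ox40) with low beads, and at 0.069, 0.024 and 0.048 (control Ig) and 0.073, 0.149 and 0.021 (anti-Ox40) with high beads. Every bead library was below every library without beads, and low and high doses did not overlap either. The difference at high beads was -4.58 (SE 0.20, adjusted p = 4.06e-12) in control Ig, where 0.195% of the no-bead level remained, an estimated 1.2 to 3.4 reads per library.

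Cd68, a glycoprotein of lysosomes and endosomes in macrophages (chromosome 11, 69664213 to 69666153), kept more. Its libraries went from 10.7, 11.9 and 11.0 without beads to 3.28, 3.04 and 3.07 at low and 2.24, 2.41 and 2.50 at high beads in control Ig. Under anti-Ox40 they were 9.16, 12.3 and 13.9, then 2.29, 3.25 and 3.05, then 2.75, 2.04 and 2.81. The fall from no to low beads was -1.56 (SE 0.12, adjusted p = 2.73e-08) in control Ig, and 21.3% of the level remained at high beads. Low and high beads did not overlap in control Ig, with a difference of -0.29 (adjusted p = 0.0461) that passed the threshold only narrowly. That call was lost when any of 12 of the 18 libraries was left out, among them each of the 9 control Ig libraries, with adjusted p-values of 0.0503 to 0.118 for Cd68.

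The other receptors of this kind were lower. Clec7a, the beta-glucan receptor Dectin-1, went from 3.77 to 0.273 to 0.082 in group mean over the 3 control Ig doses, and Msr1, a scavenger receptor for modified lipoproteins, from 2.34 to 0.084 to 0.007. Cd5l, a secreted protein of tissue macrophages, went from 0.909 to 0.021 to 0.014, and the mannose receptor Mrc1 from 0.845 to 0.046 to 0.024. Marco, a scavenger receptor of marginal zone and alveolar macrophages, was low throughout, at 0.373 without and 0.010 with either dose of beads. In control Ig all 7 tested genes of this role were called lower at both doses (29.8% and 38.9% of all tested genes at low and high beads), and under anti-Ox40 6 of 7, with Cd36 the exception (33.7% and 39.3%). Only Clec4n and Cd68 of the 7 had passed the filter with 3 or more bead libraries.

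Single libraries stood apart for Cd14 and Cd36. Cd14, a coreceptor for lipopolysaccharide, was listed at 1.77, 2.46 and 1.93 without beads and at 0.154, 1.00 and 0.020 with high beads in control Ig, so replicate 2 stood apart from the other 2 high-bead libraries. Under anti-Ox40 the high-bead values were 0.046, 0.041 and 0.034. Cd36, a fatty acid and thrombospondin receptor that platelets and endothelium also carry, was at 0.054, 0.223 and 1.17 in control Ig with low beads. Under anti-Ox40 its low-bead values were 0.487, 0.317 and 1.82, so replicate 3 was the highest in both arms. Having passed the filter through the no-bead libraries, Cd36 was called lower against no beads in control Ig (-0.75, adjusted p = 0.027, and -0.72, adjusted p = 0.0245), and in neither comparison under anti-Ox40. Both Cd36 calls were lost without control Ig no-bead replicate 2 (adjusted p = 0.0649 and 0.0576) or replicate 3 (0.0899 and 0.0821). The low-bead call was also lost without low-bead replicate 1 (0.126) or 2 (0.0904), and the high-bead call without high-bead replicate 1 (0.0706) or 3 (0.0661).

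The colony stimulating factor receptors kept unequal shares of their levels. Csf1r, the receptor on which macrophage survival depends, was at 6.21, 6.91 and 6.73 in control Ig and 5.70, 6.59 and 7.40 in anti-Ox40 libraries without beads. Low beads left 0.475, 0.497 and 0.382 (control Ig) and 0.444, 0.266 and 0.360 (anti-Ox40). High beads left 0.020, 0.055 and 0.035 (control Ig) and 0.026, 0.014 and 0.006 (anti-Ox40), the largest of which was at 10.8 estimated reads. The 3 doses did not overlap in either arm. The difference at high beads was -2.88 (SE 0.08) in control Ig, a description since no bead library reached the filter's minimum, and what remained was 6.82% at low and 0.554% at high beads.

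Csf2ra, the alpha chain of the GM-CSF receptor (chromosome 19, 61223957 to 61228429), kept 46.5% to 65.7% of its level in the bead groups. Its libraries in control Ig were at 5.24, 6.14 and 5.41 without beads, 3.37, 2.90 and 4.19 at low and 3.81, 3.47 and 3.76 at high beads. Under anti-Ox40 they were at 5.47, 6.45 and 6.33, 2.82, 2.86 and 2.80 and 3.34, 3.51 and 3.17. Bead libraries stayed below the no-bead libraries in both arms, with differences of -0.49 (SE 0.09, adjusted p = 6.74e-05) at high beads in control Ig and -0.70 (SE 0.09, adjusted p = 1.24e-06) under anti-Ox40. From low to high beads no difference was called, though the anti-Ox40 libraries did not overlap (0.07, 95% interval -0.12 to 0.26, and 0.18, -0.01 to 0.37). Csf3r, the G-CSF receptor of granulocytes, was at most 0.657 nRPKM in any library and had a mean of 0.601 without, 0.105 with low and 0.024 with high beads in control Ig.

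Of the Fc receptors and the ITAM adaptors that they signal through, Tyrobp, Fcer1g and Fcgr3 fell at both doses in both arms, and Fcgr1 was not tested. Tyrobp encodes DAP12, an adaptor of myeloid and NK cell receptors (chromosome 7, 30413760 to 30417585). Its libraries went from 14.7, 20.6 and 16.2 without beads to 2.29, 2.97 and 1.81 and 0.861, 1.09 and 0.888 in control Ig. In the anti-Ox40 arm they went from 14.0, 18.3 and 21.7 to 1.58, 1.94 and 2.06 and 0.401, 0.379 and 0.855. No 2 doses overlapped, and the high-bead differences were -3.21 (SE 0.16, adjusted p = 2.54e-11) and -3.61 (SE 0.16, adjusted p = 4.58e-12).

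Fcer1g, the common gamma chain of Fc receptors (chromosome 1, 171229572 to 171234365), was at 12.1, 13.3 and 10.0 in control Ig without beads, 2.98, 3.41 and 1.76 at low and 1.58, 2.45 and 1.41 at high beads. Under anti-Ox40 the values were 10.4, 11.8 and 9.49, 3.75, 2.93 and 2.23 and 1.32, 2.14 and 1.11. The 2 bead doses overlapped in control Ig, where their difference was not called (adjusted p = 0.0823), and were called apart under anti-Ox40 (-0.66, adjusted p = 0.00701). The test of that step between the arms did not call Fcer1g. Fcgr3, an activating IgG receptor shared with NK cells, kept 42.7% and 20.04% of its 3.15 nRPKM in control Ig, and Fcgr1, the high-affinity IgG receptor, was at most 0.328 in any library. NK cells carry Tyrobp, Fcer1g and Fcgr3 too. The sum of 8 NK cell genes was 43.5 to 51.7 nRPKM without, 25.2 to 34.3 with low and 54.1 to 86.0 with high beads in control Ig, where the receptor gene Klrd1 went from a mean of 30.1 to 7.21 and 2.94 and the granzyme gene Gzma was called higher. The part of NK cells in these values was not tested.

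The 3 chains of C1q, the complement subcomponent that splenic macrophages secrete, lie side by side on chromosome 4 and were at most 0.149 nRPKM in any bead library. C1qa (chromosome 4, 136895917 to 136898803) was at 1.59, 2.24 and 3.18 in control Ig and 1.69, 2.51 and 2.83 in anti-Ox40 libraries without beads. It was at 0.040, 0.052 and 0 (control Ig) and 0.055, 0 and 0.117 (anti-Ox40) with low beads and at 0, 0.027 and 0 (control Ig) and 0.021, 0 and 0 (anti-Ox40) with high beads. C1qb (chromosome 4, 136880129 to 136886187) went from 1.36, 1.02 and 2.10 without beads to 0.061, 0.080 and 0.028 at low and 0.054, 0.028 and 0.028 at high beads in control Ig.

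Under anti-Ox40, C1qb was at 1.13, 1.05 and 2.53, then 0.028, 0.043 and 0.149, then 0, 0 and 0.048. C1qc went from a mean of 1.49 to 0.031 at low beads in control Ig and from 1.41 to 0.062 under anti-Ox40. The difference at low beads in control Ig was -1.67 (SE 0.14) for C1qa and -1.22 (SE 0.17) for C1qb, descriptions since no bead library of any chain reached the filter's minimum. None was called between low and high beads, and no bead library held more than 8.8 estimated reads of any chain.

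Of the surface molecules, Sirpa and Itgam were the most abundant. Sirpa encodes the receptor for the "do not eat me" signal CD47 (chromosome 2, 129592835 to 129632228) and was at 8.30, 8.62 and 8.49 (control Ig) and 8.01, 8.74 and 9.70 (anti-Ox40) without beads. Low beads left 0.829, 0.692 and 0.684 (control Ig) and 0.759, 0.442 and 0.783 (anti-Ox40), and high beads 0.079, 0.162 and 0.107 (control Ig) and 0.130, 0.085 and 0.097 (anti-Ox40). The doses did not overlap, and the high-bead difference was -3.08 (SE 0.08) in control Ig, again with no bead library at the filter's minimum. Itgam, the CD11b integrin chain (chromosome 7, 128062640 to 128118491), kept more at low beads. It went from 3.57, 4.77 and 3.84 to 1.10, 1.23 and 1.00 and 0.283, 0.642 and 0.222 in control Ig. In the anti-Ox40 arm it went from 3.85, 4.96 and 4.38 to 1.03, 1.14 and 1.32 and 0.258, 0.296 and 0.175. The doses again did not overlap, and Itgam fell by 1.26 at low beads in control Ig (SE 0.12, adjusted p = 1.39e-07). Emr1, the gene of the macrophage marker F4/80, had a mean of 1.80 without beads and 0.132 at low beads, and Vcam1, an adhesion molecule of splenic red pulp macrophages and stroma, 1.45 and 0.306.

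Enzymes of lipid and heme handling gave both very steep and partly reversed courses. Gpnmb, a glycoprotein of lipid-laden macrophages (chromosome 6, 49036546 to 49070929), was at 21.4, 25.1 and 28.7 without beads, 2.17, 2.65 and 2.03 at low and 2.23, 3.45 and 3.73 at high beads in control Ig. Under anti-Ox40 it was at 22.1, 26.7 and 41.2, 2.13, 1.59 and 2.07 and 1.41, 2.51 and 3.54. Bead libraries were fully below the no-bead libraries and the 2 bead doses overlapped. At low beads it fell by 2.99 in control Ig (SE 0.23, adjusted p = 1.62e-08), and from low to high beads the difference of 0.32 was not called. Pla2g7, a secreted phospholipase that degrades platelet-activating factor, kept 2.73% and 1.39% of its 9.04 nRPKM.

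Spi1, the gene of PU.1 (chromosome 2, 91082390 to 91115756), is the only transcription factor on the list. Its libraries were at 4.63, 4.83 and 5.17 in control Ig and 4.61, 6.15 and 7.86 under anti-Ox40 without beads. They were at 0.789, 1.22 and 1.33 (control Ig) and 1.21, 0.848 and 1.5 (anti-Ox40) with low beads and at 0.101, 0.247 and 0.456 (control Ig) and 0.080, 0.086 and 0.232 (anti-Ox40) with high beads. Neither arm had any overlap between doses, and the differences were -1.48 (SE 0.16, adjusted p = 6.56e-07) at low and -2.22 (SE 0.16, adjusted p = 1.29e-09) at high beads in control Ig. Spi1 is also expressed in B cells, whose markers are described with the replicates.

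Among the small secreted or calcium-binding proteins, S100a8 and S100a9 encode the calprotectin chains of neutrophils and monocytes. S100a8 (chromosome 3, 90668978 to 90670035) was at 1.80, 3.58 and 4.64 without beads and 1.55, 2.59 and 1.72 at low beads in control Ig, and at 1.31, 2.36 and 2.51 and 2.52, 0.585 and 3.15 under anti-Ox40. These groups overlapped in both arms and were not called apart. At high beads it was at 0, 1.05 and 0 in control Ig and 0.058, 0 and 0.261 under anti-Ox40, with differences from no beads of -1.71 (SE 0.35, adjusted p = 0.000279) and -1.45 (SE 0.35, adjusted p = 0.00112).

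S100a9 (chromosome 3, 90692632 to 90695721) was at 2.27, 2.96 and 6.0 (control Ig) and 2.57, 2.56 and 4.11 (anti-Ox40) without beads. It was at 0.540, 1.07 and 2.30 (control Ig) and 1.2, 0.307 and 1.03 (anti-Ox40) at low beads. At high beads it was listed at 0, 1.57 and 0 in control Ig and at 0 in the 3 anti-Ox40 libraries. The 1 high-bead library above 0 was control Ig replicate 2, which also held the highest S100a8 and Cd14 values of the 6 high-bead libraries. S100a9 was called lower at low beads in control Ig (-1.03, adjusted p = 0.0219). That call was lost without no-bead replicate 3 (0.121), low-bead replicate 1 (0.101) or low-bead replicate 2 (0.0561). The corresponding call under anti-Ox40 (-1.16, adjusted p = 0.00993) was lost without low-bead replicate 2 (0.0519).

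Wfdc17, a small secreted antiprotease of myeloid cells, had a mean of 2.16 in control Ig and 1.56 under anti-Ox40 without beads, and was listed at 0 in all 6 high-bead libraries. Aif1 encodes the macrophage calcium-binding protein IBA1 (chromosome 17, 35170991 to 35176068) and was at 1.85, 1.91 and 1.95, then 1.19, 0.677 and 1.04 at low and 1.32, 0.908 and 1.12 at high beads in control Ig. Under anti-Ox40 it was at 1.53, 2.23 and 1.73, then 0.651, 0.793 and 0.950, then 1.32, 1.34 and 1.60. It was called lower at low beads in both arms (-0.57 and -0.65). Under anti-Ox40 it then rose from low to high beads by 0.43 (SE 0.11, adjusted p = 0.00279), and its high-bead libraries overlapped those without beads.

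The proteins of the lysosome, the oxidase and the perforin-like pore did not share a course, and the 2 oxidase subunits on the list went in opposite directions. Cybb encodes gp91phox, the membrane subunit of the NADPH oxidase (chromosome X, 9435252 to 9487771). Its means were 13.0 ± 0.690 without, 3.61 ± 1.19 with low and 0.407 ± 0.082 with high beads in control Ig (SD, n = 3), a difference at high beads of -3.31 (SE 0.18, adjusted p = 5.92e-11). Mpeg1, the macrophage pore protein perforin-2, followed it with 13.4, 1.35 and 0.331, and -3.44 (SE 0.17, adjusted p = 1.46e-11) at high beads.

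Ncf1 encodes p47phox, the cytosolic organiser of the same oxidase (chromosome 5, 134220053 to 134229625), and it rose. Without beads it was at 4.51, 4.96 and 5.91 in control Ig and 5.62, 6.96 and 8.18 in anti-Ox40 libraries. Low beads gave 15.7, 16.9 and 15.9 (control Ig) and 24.8, 25.0 and 24.1 (anti-Ox40), and high beads 27.6, 32.8 and 29.9 (control Ig) and 38.4, 41.5 and 37.7 (anti-Ox40). Each dose was fully above the one before in both arms. The increases from no beads were 1.49 (SE 0.10, adjusted p = 3.31e-09) at low and 2.35 (SE 0.10, adjusted p = 2.67e-12) at high beads in control Ig. At high beads the level was 587% of that without beads, and Ncf1 was the only member called higher than no beads in either arm.

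Ctss, the lysosomal protease cathepsin S that trims the invariant chain of MHC class II (chromosome 3, 95526786 to 95556403), did not change detectably at low beads. Its control Ig libraries were at 96.6, 89.2 and 93.1 without, 97.0, 102 and 98.3 with low and 36.3, 38.2 and 39.3 with high beads. Those with anti-Ox40 were at 96.3, 87.7 and 103, 105, 90.9 and 103 and 30.9, 35.3 and 32.5. The low-bead difference in control Ig was 0.09 (95% interval -0.05 to 0.23), although all 3 low-bead libraries were above the 3 without beads. At high beads it was lower by 1.27 (SE 0.07, adjusted p = 3.04e-11) with no overlap.

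Ifi30, the lysosomal thiol reductase GILT (chromosome 8, 70762774 to 70766663), was the 1 tested gene not called in any comparison. It was at 21.8, 22.7 and 25.6 without beads, 12, 12.6 and 28.0 at low and 17.6, 15 and 19.9 at high beads in control Ig. Under anti-Ox40 it was at 20.2, 21.7 and 31.0, 13.8, 15.1 and 29.9 and 20.6, 19.6 and 18.3. Replicate 3 was far above the other 2 at low beads in both arms. The high-bead difference in control Ig was -0.41, with a 95% interval of -1.01 to 0.20 that also covers a fall of 1.

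Hmox1 encodes heme oxygenase 1, the stress-induced enzyme that degrades heme and that red pulp macrophages hold in quantity (chromosome 8, 75093621 to 75100589). Without beads it was at 20.1, 23.2 and 21.9 in control Ig and 16.7, 23.4 and 24.6 in anti-Ox40 libraries. Low beads brought it to 5.36, 4.43 and 4.68 (control Ig) and 5.77, 5.08 and 5.38 (anti-Ox40). At high beads it was higher again, at 13.5, 10.5 and 12.2 (control Ig) and 19.5, 17.0 and 17.8 (anti-Ox40). The step from low to high beads was 1.16 (SE 0.12, adjusted p = 3.05e-07) in control Ig and 1.57 (SE 0.12, adjusted p = 1.04e-08) under anti-Ox40, with no overlap. Hmox1 was called higher in that step beside Ncf1 in control Ig, and beside Ncf1 and Aif1 under anti-Ox40. Against no beads, the high-bead level was lower by 0.81 in control Ig (adjusted p = 9.04e-06), while under anti-Ox40 the difference of -0.23 was not called (adjusted p = 0.0833) and the libraries overlapped.

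**Figure D3:**
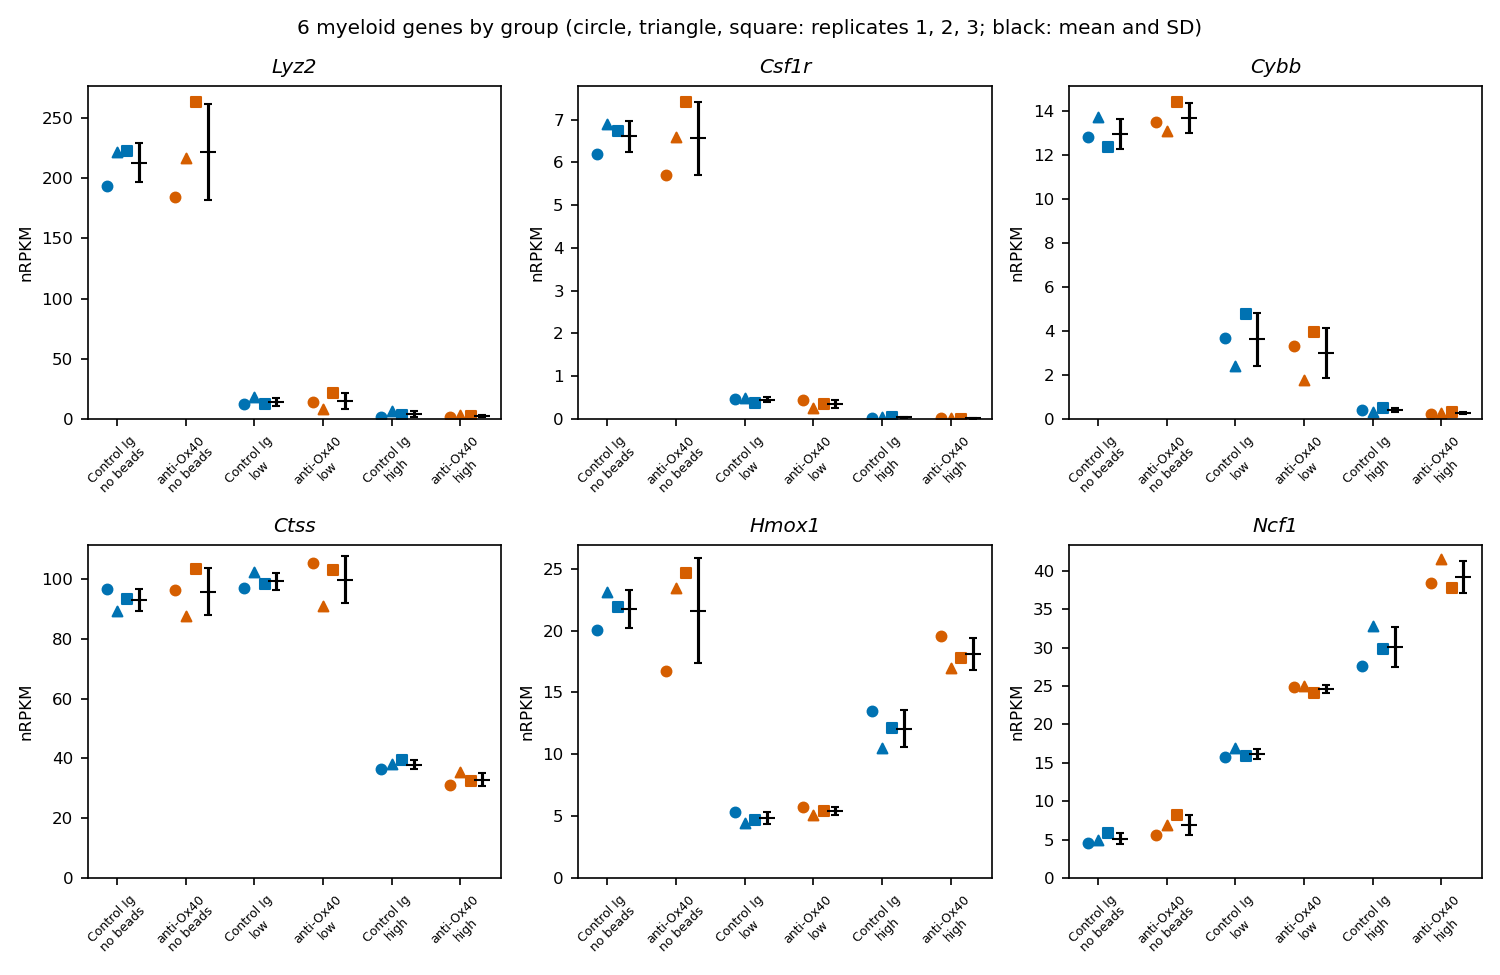
nRPKM of 6 genes in each library (circle, triangle and square for replicates 1, 2 and 3; blue for control Ig, orange for anti-Ox40) with the group mean and SD in black, on linear axes from 0. Lyz2, Csf1r and Cybb drop with dose, Ctss drops at high beads alone, Hmox1 is lowest at low beads, and Ncf1 climbs with dose and is higher under anti-Ox40 at low and high beads.

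The antibody comparisons ask whether anti-Ox40 changed these transcripts at a given bead dose. Without beads none of the 34 tested genes was called with limma, against 0.138% of all tested genes, and 2 had an unadjusted p under 0.05. They were Ncf1 (0.36, adjusted p = 0.346) and Wfdc17 (-0.30, adjusted p = 0.416). At low beads 1 was called, Ncf1, which was higher under anti-Ox40 by 0.58 (SE 0.10, adjusted p = 0.00531), with the 3 antibody libraries fully above the 3 controls. In that comparison 6.15% of all tested genes were called higher and 3.44% lower. Without the 6 libraries of replicate 3, which carried the most B cell RNA of each group, the Ncf1 difference was 0.58 and the adjusted p 0.0809.

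With high beads the antibody comparison called 2 members higher and 1 lower, against 14.4% and 11.6% of all tested genes. Hmox1 was higher under anti-Ox40 by 0.55 (SE 0.12, adjusted p = 0.00287) and Ncf1 by 0.37 (SE 0.10, adjusted p = 0.0118), in each case with the 3 antibody libraries above the 3 controls. Ctss was lower by 0.20 (SE 0.07, adjusted p = 0.0352), again without overlap. Its call was lost without control Ig high-bead replicate 2 (adjusted p = 0.0925) or 3 (0.125), and without anti-Ox40 high-bead replicate 1 (0.159) or 3 (0.0818). Without the 6 libraries of replicate 3, Ctss differed by -0.17 with an adjusted p of 0.260, and Hmox1 differed by 0.57 with an adjusted p of 0.0555. For Lyz2, the antibody difference at high beads was -0.40 with a 95% interval of -1.08 to 0.28, and for Csf1r -0.03 with -0.20 to 0.14.

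**Figure D4:**
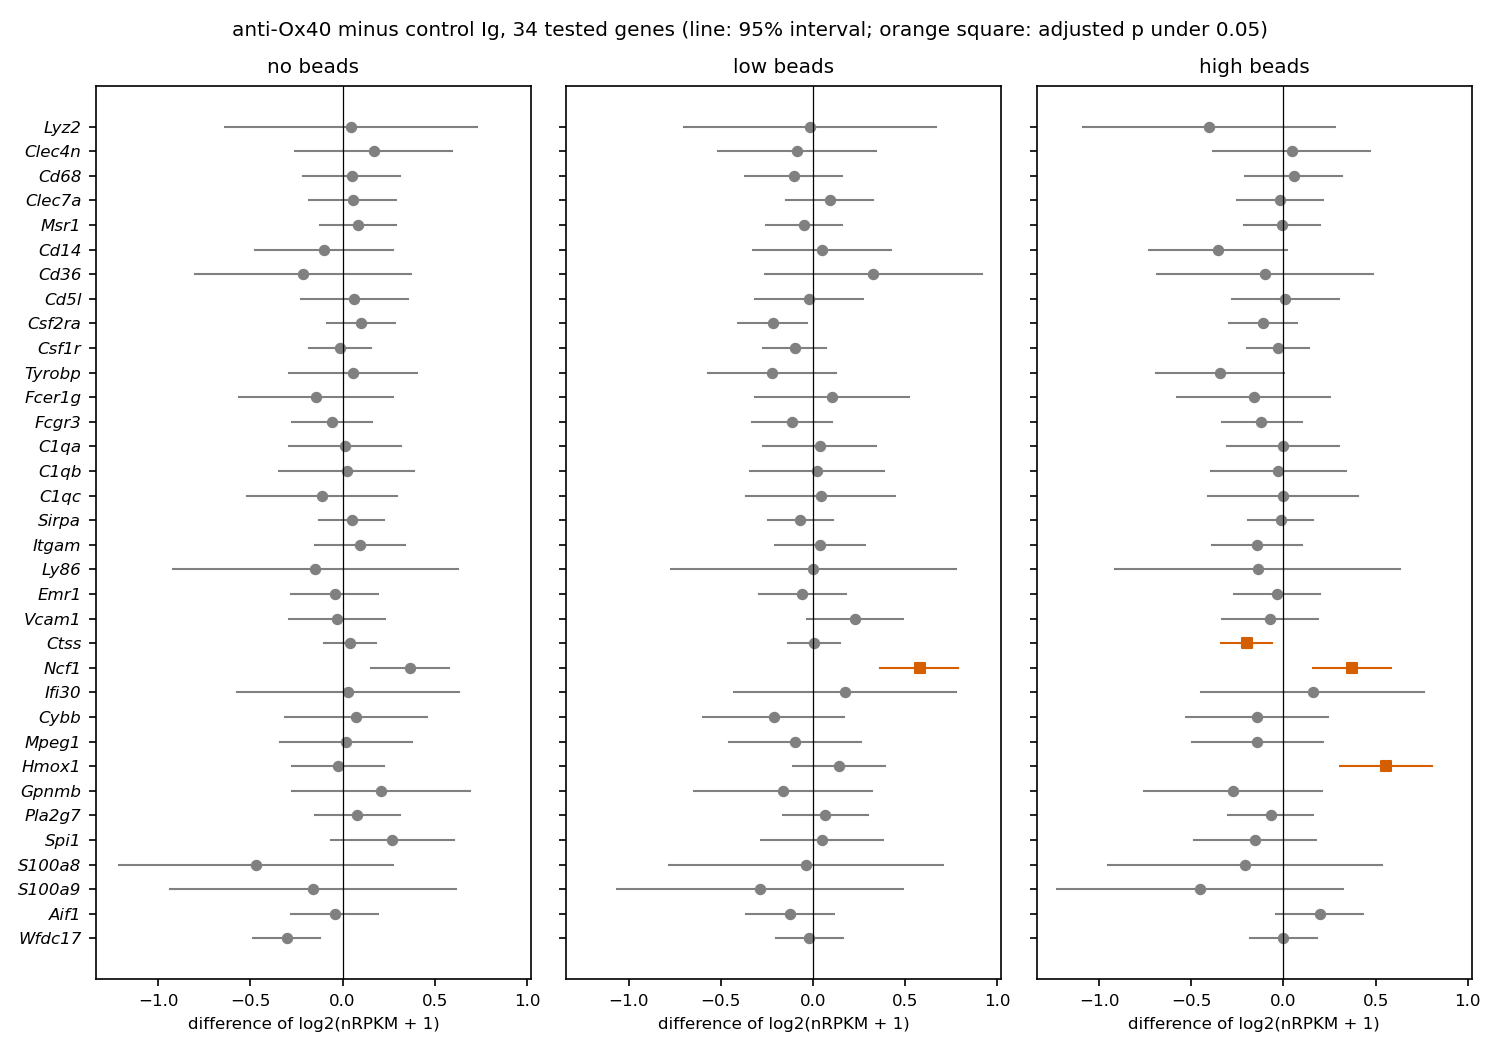
Differences of log2(nRPKM + 1) between anti-Ox40 and control Ig at each bead dose for the 34 tested genes, with 95% intervals as lines; orange squares mark adjusted p under 0.05. Most points lie near 0, with Ncf1 to the right at low beads (0.58), Ncf1 and Hmox1 to the right at high beads (0.37 and 0.55) and Ctss slightly to the left (-0.20).

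The difference of the antibody effect between doses was tested in the same model. Between high and no beads 1 of the 34 was called, Hmox1, with 0.58 (SE 0.17, adjusted p = 0.037), where 6.40% of all tested genes were called higher and 4.70% lower. The antibody difference of Hmox1 was -0.02 without beads, 0.14 at low and 0.55 at high beads. The call was lost without anti-Ox40 no-bead replicate 1 (0.41, adjusted p = 0.0637), which held the lowest Hmox1 value of its group. It was also lost without control Ig no-bead replicate 2 (0.0835) or 3 (0.0723), control Ig high-bead replicate 2 (0.0980) or 3 (0.0725), and anti-Ox40 high-bead replicate 1 (0.103) or 3 (0.0515). Neither the contrast of low with no beads nor that of high with low beads called a member, with 2 genes at an unadjusted p under 0.05 in each and 0.268% and 3.17% of all tested genes called.

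Replicate libraries differed in the summed level of the list. Summed over the 39 genes, nRPKM ranged from 512 to 567 in control Ig and from 489 to 665 in anti-Ox40 without beads. The sums were 173 to 195 and 168 to 221 at low beads, and 112 to 126 and 124 to 132 at high beads. Of the mean sum of 119.6 at high beads in control Ig, Ctss, Ncf1, Ifi30 and Hmox1 had means of 37.9, 30.1, 17.5 and 12.1. The sum therefore kept 21.8% of its no-bead level where the median member kept 5.51%, and it is no measure of the myeloid RNA alone. Replicate 1 was the lowest of the 3 no-bead libraries for 30 of the 39 genes in each arm. Replicate 3 of the anti-Ox40 arm was the highest for 30, while in control Ig replicates 2 and 3 were highest for 19 and 17. The median coefficient of variation between replicates was 12.3% and 18.6% without beads and between 31.4% and 47.0% in the bead groups. Many bead-group values were near 0, where few reads make this measure large. Msr1, above 0 in 1 high-bead library of each arm, had 173% in both. At high beads the medians cover 38 members in control Ig and 37 under anti-Ox40, because members at 0 throughout a group have no such value.

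Some members moved with B cell markers between replicates. Ms4a1, which encodes the B cell antigen CD20, was at 0.426, 0.398 and 6.30 in control Ig without beads and at 0.370, 0.479 and 11.9 with low beads, and replicate 3 was the highest in all 6 groups. The sum of 12 B cell genes was 37.4 to 57.2 in replicate 3 of the 4 groups with no or low beads and 7.04 to 11.8 in their other replicates. At high beads it was 14.0 and 8.08 in replicate 3 of control Ig and anti-Ox40 and 5.20 to 5.38 in the others, and all 12 genes were above 0 in every group. Ly86, the MD-1 partner of RP105 that B cells and macrophages share, followed the same libraries. It was at 1.36, 1.5 and 3.12 without beads, 0.524, 0.678 and 2.83 at low and 0.116, 0.325 and 0.507 at high beads in control Ig, and under anti-Ox40 at 1.15, 1.57 and 2.24, 0.690, 0.460 and 2.98 and 0.137, 0.124 and 0.308. Replicate 3 was the highest library in every group for Ly86 and for Spi1, which B cells also express. It was also the highest for Ifi30 in 5 of the 6, and for S100a9 without beads in both arms. Ctss, which B cells express too, did not follow replicate 3 in this way. In control Ig it was at 96.6, 89.2 and 93.1 without and 97.0, 102 and 98.3 with low beads. For Ctss, replicate 3 was the highest only in anti-Ox40 without beads and in control Ig at high beads. The part of B cells in these values was not tested. Ly86 was called lower from low to high beads under anti-Ox40 (-0.85, adjusted p = 0.0462), and without low-bead replicate 3 the difference was -0.40 with an adjusted p of 0.286. That call passed only narrowly. It was also lost without anti-Ox40 high-bead replicate 1 (0.0967), 2 (0.0988) or 3 (0.0634). Leaving out some libraries of groups outside the comparison lost it too, with adjusted p-values of 0.0502 to 0.0545. Without the 6 libraries of replicate 3, 28 and 29 genes were called lower at low beads, and 31 and 28 at high beads, in control Ig and anti-Ox40.

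Lung transcripts marked a set of libraries that partly overlapped with those rich in B cell markers. Scgb1a1, the secretoglobin of airway club cells, was listed at 0 in all 6 no-bead libraries, at 0, 16.4 and 18.2 in control Ig and 41.4, 26.5 and 148 in anti-Ox40 with low beads. At high beads it was at 20.9, 84.3 and 33.3 (control Ig) and 19.5, 35.9 and 26.0 (anti-Ox40). The sum of 12 lung epithelial genes was 9.98 to 13.5 nRPKM without beads, where 7 of the 12 were at 0 in control Ig and 8 under anti-Ox40, and 7.04 to 239 with beads. The 2 libraries with the largest sums were anti-Ox40 low-bead replicate 3 (239 nRPKM) and control Ig high-bead replicate 2 (131 nRPKM). The former also had a B cell sum of 49.1, against 8.91 and 7.04 in replicates 1 and 2 of its group. Lung and B cell patterns cannot be told apart in it. Each of these 2 libraries was the highest of its group for 22 of the 39 members. Among these, Lyz1 was highest in both, at 0.900 and 0.396, as was S100a8, at 3.15 and 1.05. S100a9 and Cd14 were highest of their group in the second. All 12 lung genes were above 0 in some bead library, and so were all 6 measured alveolar macrophage genes. By the filter, 8 of the 12 lung genes were tested, and 5 of the 6 alveolar macrophage genes stayed under it. The part of lung RNA was not tested. Without these 2 libraries, 29 members were called lower at low beads in each arm, and 32 and 30 at high beads, in control Ig and anti-Ox40.

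**Figure D5:**
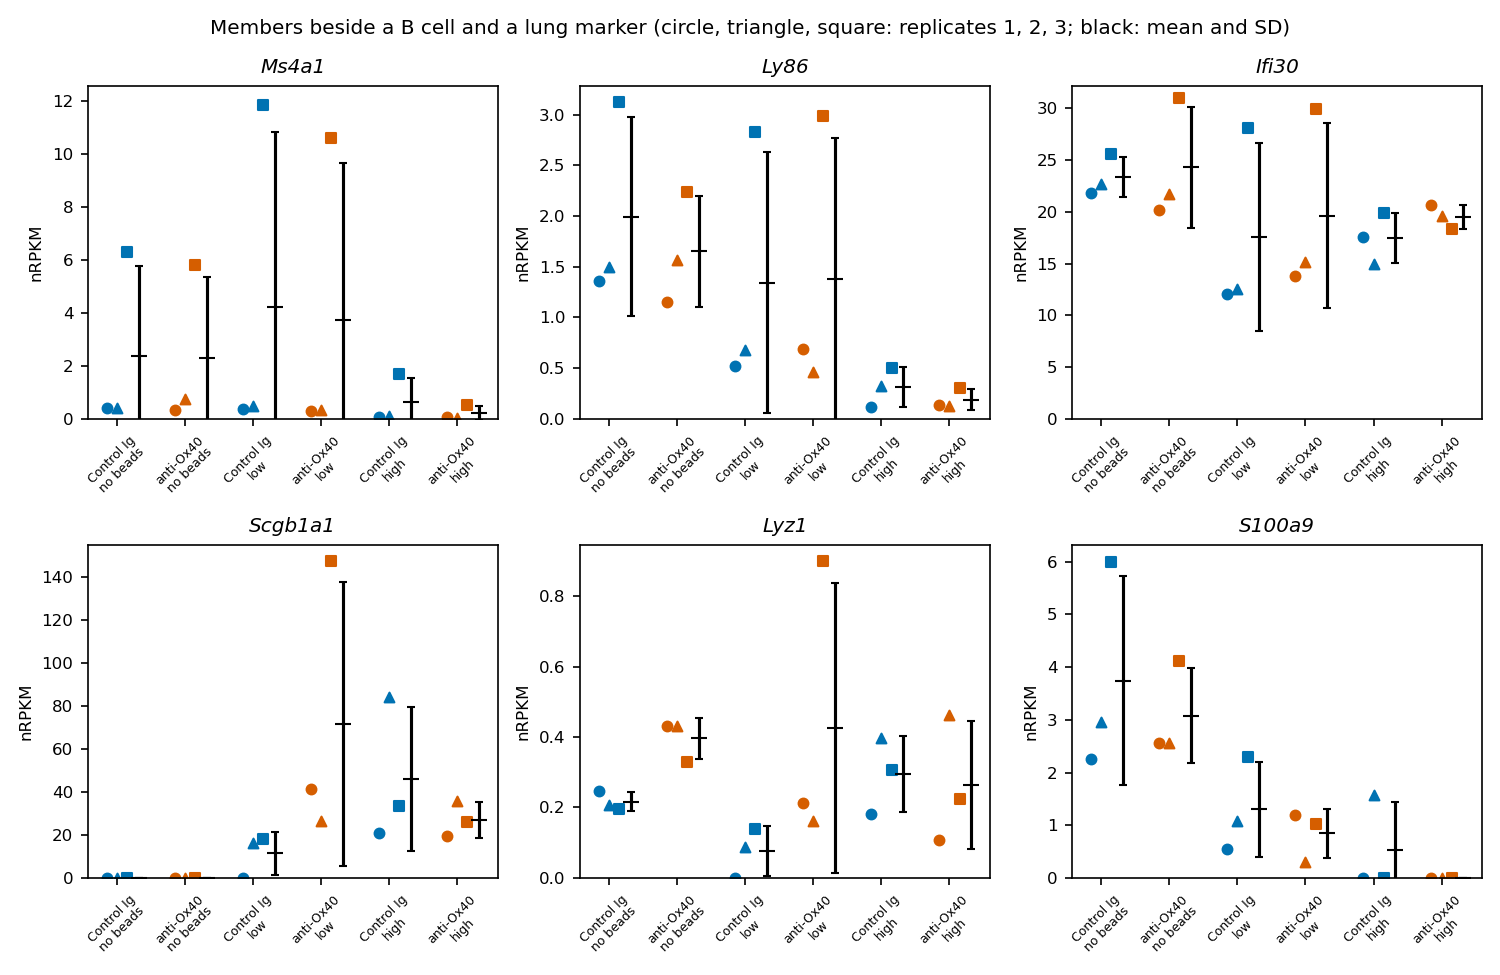
nRPKM per library (circle, triangle and square for replicates 1, 2 and 3) with group mean and SD in black, for the B cell marker Ms4a1 and the lung marker Scgb1a1 beside 4 members of the list. Ms4a1, Ly86 and Ifi30 share high squares (replicate 3) at low beads, and Scgb1a1 is at 0 without beads; SD bars are clipped at 0.

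Other genes of the same cells were read from a list that holds no member. Of 50 further monocyte and macrophage genes 49 were in the table, 33 were tested and, at high beads in control Ig, 26 were called lower and 3 higher, with a median difference of -1.21 (all tested genes: 38.9% lower and 43.4% higher, median 0.04). At low beads 27 were lower and 1 higher. Genes of the list that were high only without beads passed the filter through those libraries. For such genes a decrease was built in, so these counts are descriptions and no separate support. The mean sum of the 49 genes in control Ig was 513 nRPKM without, 296 with low and 309 with high beads. It thus kept 57.7% at low and 60.2% at high beads, and single genes differed widely. The C-type lectins Clec4d and Clec4e, of the same receptor cluster as Clec4n, went from 4.26 to 0.015 and from 4.39 to 0.054 in group mean, and Lgals3, a macrophage lectin, from 46.3 to 8.86. The 3 that were higher are transcription factors Irf8 (5.46 to 46.0) and Cebpb (14.1 to 31.8) and the protease Adam8 (3.86 to 5.62). Activated lymphocytes are known to transcribe Irf8 too.

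Genes of neutrophils and their precursors formed another list. Among 16 neutrophil genes 9 were tested, with 7 lower and 2 higher at high beads in control Ig and 6 lower and 1 higher at low beads (all tested genes: 38.9% and 43.4%, then 29.8% and 32.6%). The same limit of the filter holds for these counts. Mpo, Elane and Ctsg, which encode granule enzymes, kept means of 6.18, 3.78 and 3.64 at low beads from 10.9, 6.0 and 3.85 without. They had 0.308, 0.128 and 0.166 at high beads. The defining gene of mature neutrophils, Ly6g, was at a mean of 0.057 without beads and 0.591 at high beads in control Ig, and 1.5 at high beads under anti-Ox40, and was not tested. The 2 neutrophil genes called higher were Il1r2, a decoy receptor that regulatory T cells also carry, and Cxcr2.

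Further lists describe what else the cultures held, and their counts stand against 38.9% of all tested genes lower and 43.4% higher, near which several of them lie. Their genes passed the same filter, so a decrease was built in for any that were high only without beads. At high beads in control Ig, 2 of 5 tested dendritic cell genes were lower and 1 higher, 6 of 6 basophil, eosinophil and mast cell genes were lower, and 7 of 7 platelet genes were lower. Of the tested lymphoid markers, 2 of 9 B cell genes, 3 of 6 plasma cell genes and 3 of 4 NK cell genes were lower, with 0, 2 and 1 higher. Among 8 tested lung epithelial genes 6 were higher and 2 lower, the 1 tested alveolar macrophage gene (Atp6v0d2) and the 1 tested endothelial gene (Pecam1) were lower, no erythroid gene passed the filter, and Cd8b1, the 1 tested CD8 gene, was not called. Of 4 tested nuclear RNAs 2 were higher and 2 lower. Of the 11 tested CD4 T cell genes 4 were higher and 4 lower in that comparison, with a median difference of 0.02 and sums of 2239 to 2374 without and 2186 to 2280 with high beads in control Ig. Under anti-Ox40 at high beads that sum was 1925 to 1983.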

How the data were processed

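The deposited table gives 1 value per gene and library in nRPKM, an RPKM value with a further normalization by the authors. Per the submitters' processing notes, the aligner was GSNAP and the build GRCm38. Not given in the sources used here are the annotation, the counting and the scaling between libraries. Per the labels' protocols, libraries were made from 100 to 500 ng of RNA with 10 PCR cycles by a kit that keeps no strand, so reads of overlapping genes cannot be told apart. Depth was estimated from microRNA genes, whose values are whole multiples of 1 read (100% within 0.1 read).

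Groups came from the sample labels. The 12 comparisons were fitted with limma 3.58.1 (R 4.3.3) on log2(nRPKM + 1) over all 18 libraries, with 6 group means, 12 residual degrees of freedom and a mean-variance trend. Genes with fewer than 3 libraries at an nRPKM of 1 or more were left out, p-values are 2-sided and Benjamini-Hochberg adjusted over the 13075 tested genes, and genes with an adjusted p under 0.05 were called. Intervals are 95% and come from the same model. The code was tested on simulated data. Other tools were Python 3.11.15, pandas 2.3.3, numpy 2.4.6 and matplotlib 3.10.9. Alternatives were other pseudocounts, filters and scalings, no trend, a fit to only the groups compared, a replicate block and leaving out libraries.

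The members and all gene lists were chosen with earlier results of these data known. Values in every library are given for the 2 members of each role with the highest mean, for members called in an antibody comparison and for members called higher with beads in any bead comparison. Ifi30 and Ly86 in all groups, and Cd14 and Cd36 in some, were given by library as well after their values were seen, because their replicates differ. Gene coordinates are from GENCODE M21 on GRCm38. Promoters are RefSeq windows on GRCm38.p6, and no entry was found for Clec4n, Csf1r, Tyrobp, Cd14, C1qa, Emr1, Vcam1, Hmox1, Spi1, Sirpa and Msr1.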

Additional observations from a re-analysis of the deposited data

Results flagged for a closer look

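The antibody effect on Hmox1 differed between bead doses by a test of the difference itself. The difference between anti-Ox40 and control Ig was -0.02 without beads and 0.55 at high beads, and these differed by 0.58 on the log2(nRPKM + 1) scale (SE 0.17, limma adjusted p = 0.0370). All 3 anti-Ox40 high-bead libraries were above the 3 controls, whereas the no-bead libraries of both arms overlapped. Over the alternatives tried the value ranged from 0.41 to 0.69 and the adjusted p from 0.0224 to 0.172.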

How the results depend on the processing

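Of 163 changes of single members that were called, 152 stayed called under every alternative fixed in advance, other than leaving out a library, that still tested the gene. Likewise 152 stayed called whichever library was left out, where the gene was still tested. The filter on the mean dropped Cd14, Cd36, Cd5l, C1qa, C1qb, C1qc, Emr1, Vcam1, Msr1 and Wfdc17. Cd5l reached the minimum in only 3 libraries and was dropped when any of these was left out. Calls of dropped genes count as neither kept nor lost there. No value reversed. The calls lost under some setting that still tested the gene were of Cd36, S100a9, Cd68, Clec7a, Ly86, Pla2g7, Ctss and Hmox1. Without the libraries richest in B cell transcripts, calls of Ncf1 and S100a8 were lost too. Medians over the tested members moved with the pseudocount and filter, which also change how much low values count. In the order low against no, high against no and high against low beads, a pseudocount of 0.1 gave -2.49, -3.56 and -0.68 in control Ig and -2.49, -3.74 and -1.10 under anti-Ox40, with -0.25 for the antibody at high beads and -0.22 for the antibody effect at high minus low beads. With 0.5, the first 2 were -1.83 and -2.31 in control Ig and the 3 were -1.82, -2.09 and -0.56 under anti-Ox40. Without a filter the control Ig medians were -1.26 and -1.41 (against no beads). A filter on the mean over all libraries left fewer genes and gave -2.01 (high against no) and -0.58 (high against low) in control Ig, -1.71, -2.16 and -0.62 under anti-Ox40, and 19 members lower at low beads in control Ig. Quantile normalization gave -0.054 and -0.11 for high against low beads in control Ig and anti-Ox40; the cause was not tested.

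Leaving out 1 library at a time gave control Ig medians of -1.83 to -1.52 for high against no beads. The number of members called ranged from 0 to 1 for the antibody without beads, 1 to 2 at low beads, 0 to 1 for the antibody effect at low minus no beads and 0 to 1 at high minus no beads. The last was 0 without a filter, with only the groups compared in the fit, and without the libraries richest in B cell or in lung transcripts (both chosen after seeing the data). Without those richest in B cell transcripts, 0 members were called for the antibody at low beads.

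The labels do not pair replicates. With the replicate number as a block, 30, 32 and 15 members were lower in control Ig and 28, 30 and 18 under anti-Ox40, in the same order of comparisons, and 0, 1 and 3 were called for the antibody at no, low and high beads. Each of the 18 libraries correlated best with a library of its own number in another group, a hint from the data and not the design, while correlations between same-numbered libraries ran from -0.16 to 0.35. Depth limits the lowest members: 12 were under 10 estimated reads in every high-bead library.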
